A study of Homo sapiens with 4 samples.

Results

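Genes of enzyme families that write and erase marks on histones and DNA were followed in slow-cycling cells of MDA-MB-231. This is a long-established line from a human triple-negative breast cancer. The rule for the genes uses names and annotation, with no measured value in it. It takes the protein-coding genes of the KDM, KMT, SETD, EZH, KAT, HDAC, SIRT, DNMT and TET families, together with UHRF1 and HELLS. They number 72 of the 58735 genes in the table, with 1 gene of these families not reported here.

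The cells carried TetOn-H2BeGFP, a histone H2B-eGFP fusion under a doxycycline-inducible promoter. All 4 groups shared this construct and the same labelling: doxycycline at 5 µg/ml for 3 days, loading with a Claret and a Violet dye, and a chase of 12 days during which dividing cells dilute every label. Cells in the top 1% for Claret, for eGFP or for Violet were sorted as slow-cycling cells, and the Bulk group was sorted without a fluorescence gate, so that Bulk can itself contain slow-cycling cells. Each group is a single RNA-seq library from the one line, and no difference given here has a replicate check. Library totals lay between 15508179 and 16976909 counted reads.

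Groups follow the sample titles. A second label, the treatment field, names another sort for each of the 4 libraries: the one titled Bulk appears there as Claret, the one titled Claret as eGFP, the one titled H2B-eGFP as Violet, and the one titled Violet as un-gated. In the data, the library titled Bulk stood apart from the other 3. MKI67, a marker of proliferating cells, had 6778 reads in it and 995, 689 and 915 in the libraries titled Claret, eGFP and Violet. All values below use the titles. Markers of the line were present in every library, with VIM at 156 to 211 FPKM (the authors' unit, scaled for gene length and library size) and EGFR at 66.3 to 85.9 FPKM. Of 4 markers listed as low in this line, ESR1 lay at 0.01 to 0.03 FPKM, PGR at 0, CDH1 at 0 to 0.03 and ERBB2 at 8.54 to 9.06. Of 4 markers of other cell types, PTPRC (leukocytes) lay at 0 to 0.01 FPKM, PECAM1 (endothelium) at 0.44 to 0.70, COL1A1 (fibroblasts) at 1.86 to 2.31 and EPCAM (luminal epithelium) at 0.69 to 1.52. EPCAM was called higher in eGFP than in Violet, with 61 and 28 reads (log2 ratio 1.06), and none of these markers was called against Bulk. Their part in the results was not tested.

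DNA methylation is copied after replication by DNMT1, which UHRF1 brings to hemimethylated sites and which works with the chromatin remodeler HELLS. EZH2 and its relative EZH1 are the catalytic subunits of Polycomb repressive complex 2 (PRC2), which methylates histone H3 at lysine 27, and KDM6A and KDM6B remove that methylation. Acetyl groups placed by KAT enzymes are removed by the zinc-dependent HDACs and the NAD-dependent sirtuins.

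A few of these enzymes moved strongly and most moved little, as did most genes tested. In Claret, eGFP and Violet, 63.2%, 57.4% and 69.1% of the enzymes tested had a log2 ratio to Bulk under 0.5 in size. The shares of all genes tested were 54.9%, 53.2% and 53.9%. UHRF1, DNMT1, HELLS and EZH2 were lower in all 3 slow-cycling libraries than in Bulk, by 2.88 to 7.78 times. KDM7A and HDAC5 were higher in all 3, by 6.32 to 6.96 times and by 2.88 to 3.35 times. A gene is called here when the exact binomial test on the reads of a pair of libraries gave an adjusted p under 0.05 and the log2 ratio was at least 1 in size. That test compares these libraries, not the conditions. In bulk RNA, fewer cells of a kind and less RNA per cell cannot be told apart.

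Of the 72 genes, 68 reached a mean of 1 CPM (read count scaled to library size) over the 4 libraries and were tested among 14585 genes. DNMT3L, KDM4F and KDM5D had 0 reads in every library, and KDM4E had 1 read, in Violet. A count of 0 allows up to 3 reads, or 0.177 to 0.193 CPM. In Claret, 3 of the 68 were called higher, where 11.2% of all genes tested were, and 4 lower, where 6.72% were. In eGFP, 3 were called higher against a background of 11.9%, and 7 lower against 7.64%. In Violet, 3 were called higher against 11.6%, and 4 lower against 6.91%. Called in all 3 libraries, 2 were higher against 8.49% of all genes and 4 were lower against 4.93%. The shares called lower are thus near the background and those called higher are below it. With the groups of the treatment field, the library titled Violet is the un-gated reference and the one titled Bulk is the Claret group. In that Claret group 4 enzymes were called higher, against 6.91% of all genes, and 3 lower, against 11.6%. In the eGFP and Violet groups of that field 0 were called. There 0.802% and 1.01% of all genes were called in either direction, so that 0 of 68 is near the background.

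At a smaller threshold of 1.5-fold, more enzymes were called, mostly lower ones. In Claret 5 were higher (background 19.8%) and 17 lower (background 16.7%). In eGFP 7 were higher (background 20.5%) and 17 lower (background 17.9%). In Violet 6 were higher (background 20.8%) and 12 lower (background 16.6%). In all 3 libraries, 5 were higher (background 15.5%) and 10 lower (background 12.7%). The median log2 ratio of the 68 was -0.21 in Claret, -0.24 in the eGFP library and -0.23 for Violet, where the median of all genes tested was -0.01, -0.01 and 0.01. Of the 68 enzymes tested, 38 lay below 0 in all 3 libraries and 20 lay above 0 in all 3. Of all 14585 genes tested, 6246 lay below 0 in all 3 and 6210 above.

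**Figure D1:**
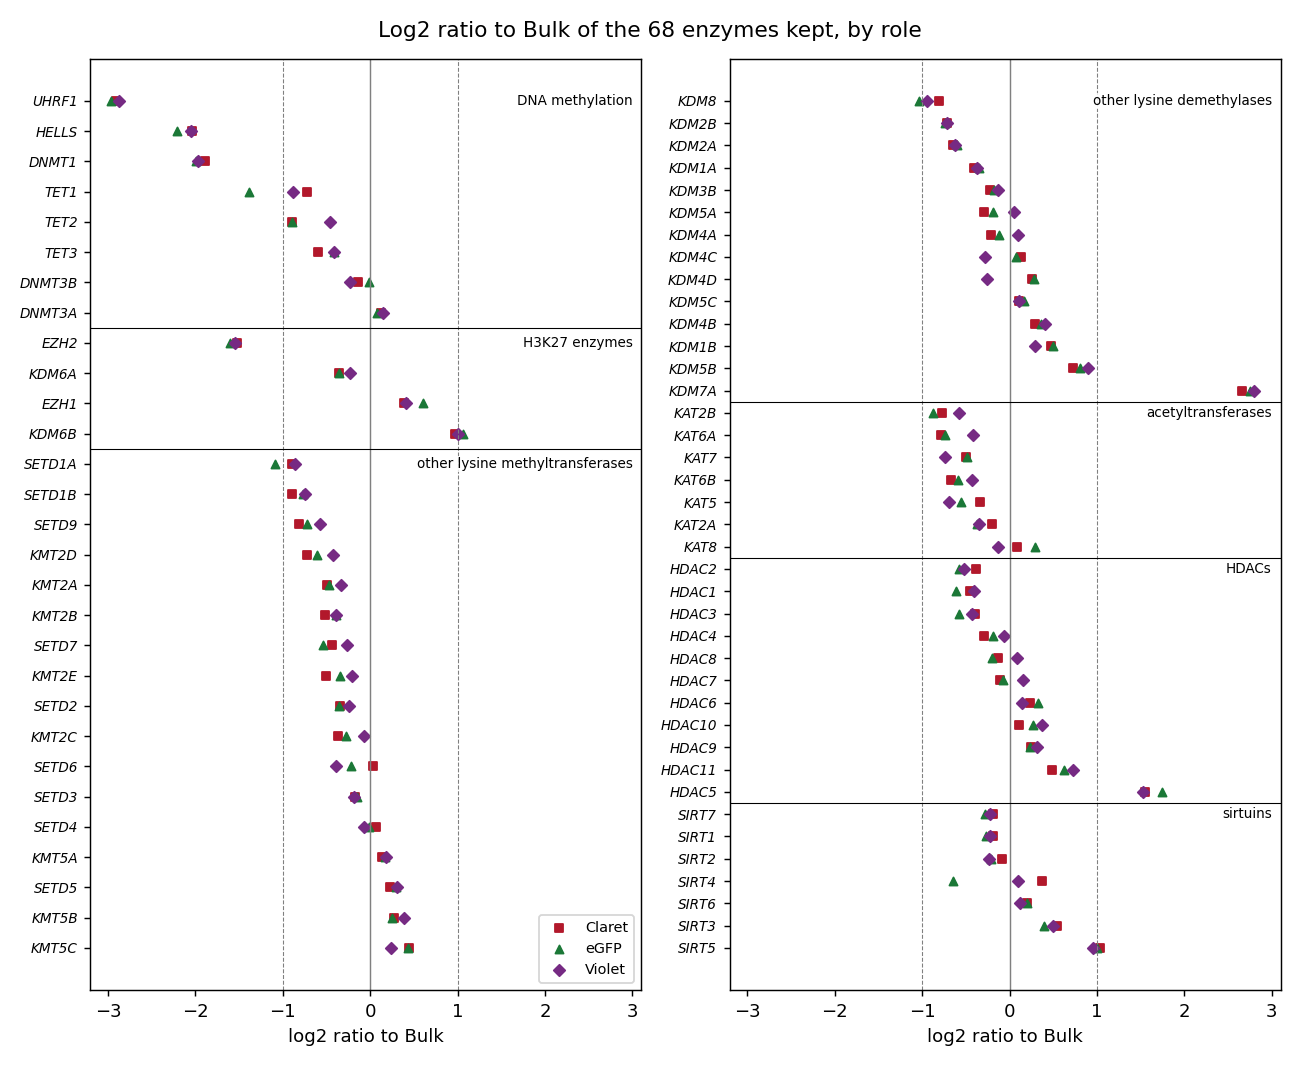
Log2 ratio to Bulk (x axis) of each of the 68 enzymes kept (y axis, grouped by role), with 1 point for each slow-cycling library and dashed lines at a log2 ratio of 1 in either direction. The 3 points of most enzymes lie together, UHRF1, HELLS, DNMT1 and EZH2 lie beyond the lower line, and KDM7A and HDAC5 beyond the upper one.

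The promoters of the 4 enzymes that were lower in all 3 libraries each hold 1 of a pair of related short sequences, and they are given here with that of KDM7A, the enzyme with the largest rise. Sequences are RefSeq promoter windows on GRCh38.p14, 250 bases before to 50 bases after an annotated start, and 65 of the 72 genes had one. HDAC5 is among those without. Capitals mark a match to TTTCGCGC or TTTGGCGC on either strand, 2 forms of the consensus E2F site, called the E2F letters below. The UHRF1 window lies at chr19:4909894-4910193 on the plus strand, the DNMT1 window at chr19:10194904-10195203 on the minus strand, the HELLS window at chr10:94545538-94545837 on the plus strand, the EZH2 window at chr7:148884242-148884541 on the minus strand, and the KDM7A window at chr7:140176934-140177233 on the minus strand. Each is written along the strand of its gene.
UHRF1: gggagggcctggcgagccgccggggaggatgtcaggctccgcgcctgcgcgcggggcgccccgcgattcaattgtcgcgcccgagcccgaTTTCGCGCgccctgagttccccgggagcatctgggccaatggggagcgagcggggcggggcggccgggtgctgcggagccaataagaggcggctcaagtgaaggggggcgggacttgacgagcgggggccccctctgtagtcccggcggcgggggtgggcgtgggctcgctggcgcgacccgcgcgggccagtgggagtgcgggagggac
DNMT1: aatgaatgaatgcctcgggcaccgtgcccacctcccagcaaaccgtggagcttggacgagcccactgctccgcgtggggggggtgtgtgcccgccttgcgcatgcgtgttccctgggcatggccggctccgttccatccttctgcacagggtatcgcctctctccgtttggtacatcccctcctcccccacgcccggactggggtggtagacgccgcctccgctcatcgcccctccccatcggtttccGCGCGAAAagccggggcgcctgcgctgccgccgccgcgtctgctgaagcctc
HELLS: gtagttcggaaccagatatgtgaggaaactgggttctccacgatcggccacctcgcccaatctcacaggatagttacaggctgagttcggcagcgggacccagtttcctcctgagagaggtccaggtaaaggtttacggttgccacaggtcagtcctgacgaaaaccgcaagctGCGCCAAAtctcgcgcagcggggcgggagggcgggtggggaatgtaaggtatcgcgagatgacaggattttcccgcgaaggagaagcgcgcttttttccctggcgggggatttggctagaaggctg
EZH2: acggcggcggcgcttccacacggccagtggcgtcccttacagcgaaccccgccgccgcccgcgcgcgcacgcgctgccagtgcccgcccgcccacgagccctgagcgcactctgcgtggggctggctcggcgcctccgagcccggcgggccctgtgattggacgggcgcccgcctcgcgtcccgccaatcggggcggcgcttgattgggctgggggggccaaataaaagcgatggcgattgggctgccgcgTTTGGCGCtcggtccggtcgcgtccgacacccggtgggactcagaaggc
KDM7A: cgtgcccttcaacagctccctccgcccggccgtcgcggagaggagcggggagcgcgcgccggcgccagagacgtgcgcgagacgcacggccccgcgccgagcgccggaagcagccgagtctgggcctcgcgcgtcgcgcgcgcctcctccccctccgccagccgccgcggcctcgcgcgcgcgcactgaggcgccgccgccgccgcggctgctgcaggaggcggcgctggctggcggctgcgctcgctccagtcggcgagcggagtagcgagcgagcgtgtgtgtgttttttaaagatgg
The match begins 160 bases before the start in UHRF1 (TTTCGCGC), 2 bases before it in DNMT1 (GCGCGAAA), 76 bases before it in HELLS (GCGCCAAA) and 2 bases after it in EZH2 (TTTGGCGC). UHRF1 has 3 windows and EZH2 has 2, with a match in 1 of each. KDM7A has none.

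These 4 enzymes were the only ones of the 65 with the E2F letters in a window, on 4 of 103 windows (3.88%). Over all promoters in the table, 403 of 35116 windows (1.15%) hold them. Among all genes tested that have a window, 49 of the 555 called lower in all 3 libraries held the match (8.83%), as did 5 of the 751 called higher in all 3 (0.666%) and 201 of the other 9048 (2.22%). The 59 enzymes tested that have a window and no match had a median log2 ratio of -0.19 in Claret and -0.20 in eGFP and in Violet. Their lowest values were -0.89, -1.39 and -0.94. Other letters were counted in the same groups of genes. CCAAT was held by 57.1% of the genes called lower in all 3 and 39.7% of those called higher, where 43.0% of all genes tested with a window hold it. TTTGAA or TTTAAA, the cell-cycle homology region, was held by 35.1% of the lower and 18.9% of the higher genes, against 21.0% of all. The AP-1 letters TGAGTCA or TGACTCA were held by 2.34% of the lower and 7.86% of the higher genes, against 5.16% of all, and the CRE letters TGACGTCA by 4.32% and 3.20%, against 3.71%. No difference between these shares was tested. Among the enzymes, CCAAT occurs in a window of 25 enzymes, on 30.1% of their windows against 34.6% of all. The cell-cycle homology letters occur in 15 enzymes, KDM7A included, on 18.4% of windows against 24.0%. The AP-1 letters occur in KDM4C and KDM6A alone of the 65 (1.94% of windows against 4.95%), and the CRE letters in SIRT4 alone (0.971% against 1.85%). All were searched on both strands. CCAAT and the E2F letters both occur in windows of UHRF1, HELLS and EZH2. A match is a string of letters and was not tested as a binding site. Other forms of the E2F site were not counted, and the split of the enzymes by match depends on that choice. The EZH1 window holds TTTGGCGG, which differs from TTTGGCGC in its last letter alone, and EZH1 lay above Bulk in all 3 libraries. The first UHRF1 window holds TTTCGCGG.

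**Figure D2:**
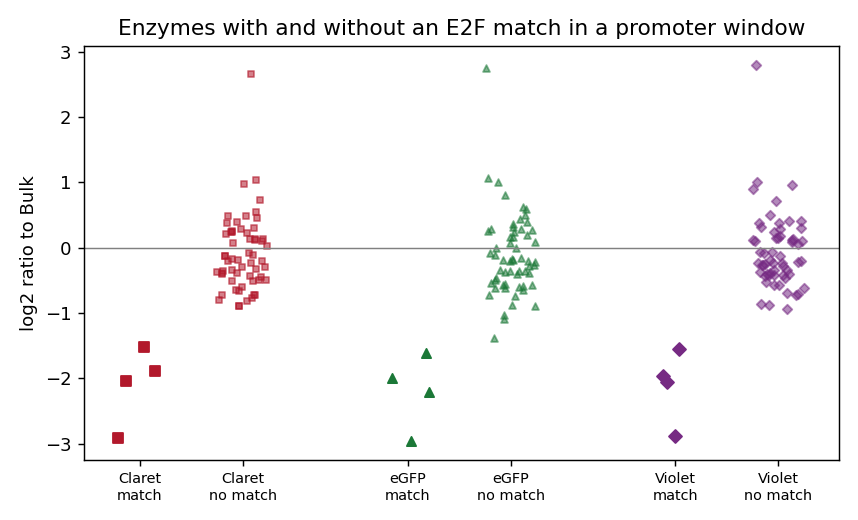
Log2 ratio to Bulk (y axis) of the enzymes tested that have a promoter window, split by library and by whether a window holds the E2F letters (x axis), with 1 point per enzyme spread sideways for legibility. The 4 enzymes with a match lie between -2.96 and -1.53, and the 59 without lie between -1.39 and 2.80.

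Maintenance of DNA methylation was the role with the deepest fall. UHRF1 (ENSG00000276043, chr19:4903080-4962154), the reader of hemimethylated DNA whose promoter is shown above, had 4339 reads in the Bulk library against 619, 561 and 588 in the Claret, eGFP and Violet libraries. The 3 slow-cycling libraries lay close together, far below Bulk. Its log2 ratio was -2.91 in Claret (95% exact interval of the ratio from counting error, -3.04 to -2.80), -2.96 in eGFP (-3.09 to -2.84) and -2.88 in Violet (-3.01 to -2.76). Of its 31-base words, 26.96% also occur in another gene, chiefly AC112777.1, a pseudogene of UHRF1 with 412 reads in the Bulk library against 74, 58 and 82 in the Claret, eGFP and Violet libraries. With the reads of both added together the log2 ratio was -2.88, -2.95 and -2.82. Of the 68 enzymes, 6 share over 10% of their 31-base words with other genes, and their reads are uncertain to that extent: UHRF1, HDAC10, KAT7, KDM4A, KMT2A and KMT5A. Only UHRF1 of these was called.

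DNMT1 (ENSG00000130816, chr19:10133345-10231286), the maintenance methyltransferase, had 8584 reads in the Bulk library against 2502, 2169 and 2192 in the Claret, eGFP and Violet libraries. Its log2 ratio was -1.89 (-1.95 to -1.82), -2.0 (-2.07 to -1.93) and -1.97 (-2.04 to -1.90) in that order. HELLS (ENSG00000119969, chr10:94501434-94613905), the remodeler, had 1796 reads in the Bulk library against 468, 391 and 431 in the Claret, eGFP and Violet libraries. The log2 ratios were -2.04 (-2.20 to -1.90), -2.21 (-2.37 to -2.05) and -2.05 (-2.21 to -1.91). All 3 maintenance genes were called lower in every slow-cycling library.

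The de novo methyltransferases were not called, with log2 ratios near 0. DNMT3A had 588 reads in the Bulk library against 691, 627 and 650 in the Claret, eGFP and Violet libraries. Its log2 ratios in that order were 0.12 (-0.04 to 0.29), 0.08 (-0.08 to 0.24) and 0.15 (-0.02 to 0.31). DNMT3B, named after its values were seen, had 318, 312, 319 and 271 reads in Bulk, Claret, eGFP and Violet, and no call. On the per-length FPKM scale the 3 DNMT genes summed to 63.9 in Bulk and to 22.4, 21.4 and 21.0 in the libraries of Claret, eGFP and Violet. DNMT1 made up 88.2% of that sum in Bulk and 67.2%, 64.7% and 66.5% in the slow-cycling libraries. The sum fell with DNMT1, and the larger shares of DNMT3A and DNMT3B come from a smaller total.

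The TET enzymes, which oxidise methylated cytosine, lay below Bulk in all 3 libraries, with 1 call among them. That call was in eGFP, where 7.64% of all genes tested were called lower. Of all 14585 genes tested, 6246 lay below Bulk in all 3. TET1 (ENSG00000138336, chr10:68560656-68694482) had 55 reads in the Bulk library against 35, 20 and 29 in the Claret, eGFP and Violet libraries. Its log2 ratio was -0.73 (-1.41 to -0.12), -1.39 (-2.29 to -0.71) and -0.88 (-1.62 to -0.25), and only the eGFP value was called (exact binomial test, adjusted p = 8.43e-05). The wide intervals reflect the small counts. TET2 (476, 276, 258 and 345 reads in Bulk, Claret, eGFP and Violet) and TET3 (789, 562, 599 and 591 reads), both named after their values were seen, were not called at 2-fold. In FPKM the 3 TET genes summed to 6.38 in Bulk and to 3.91, 4.17 and 4.50 in the libraries of Claret, eGFP and Violet.

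Genes of the cell cycle moved far in the same direction. Of 28 listed S-phase genes, 28, 27 and 27 were called lower in Claret, eGFP and Violet, with a median log2 ratio of -2.13, -2.56 and -2.24. Of all genes tested, 6.72%, 7.64% and 6.91% were called lower, and these shares are also the background of the partner gene lists that follow. Of 38 listed G2/M genes, 36 were called lower in each, with medians of -2.22, -2.53 and -2.12. UHRF1 therefore lay below the S-phase median in all 3 libraries, and DNMT1, HELLS and EZH2 above it. The part of these genes' change in the fall of the 4 enzymes was not tested.

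Methylation of H3 lysine 27 showed opposite movements among its enzymes. EZH2 (ENSG00000106462, chr7:148807383-148884321) had 1899 reads in the Bulk library against 709, 628 and 649 in the Claret, eGFP and Violet libraries, and was called lower in all 3. Its log2 ratio was -1.53 (-1.66 to -1.40), -1.61 (-1.74 to -1.48) and -1.54 (-1.68 to -1.42). EZH1, named after its values were seen, had 557 reads in Bulk and more in each slow-cycling library, at 787, 852 and 740. Its log2 ratio of 0.39 (0.23 to 0.55), 0.60 (0.44 to 0.76) and 0.41 (0.25 to 0.57) was not called. In FPKM the EZH2 to EZH1 ratio was 5.27 in Bulk against 1.39, 1.14 and 1.36 in the libraries of Claret, eGFP and Violet, and the sum of both went from 32.1 to 15.9, 16.3 and 15.5.

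KDM6B (ENSG00000132510, chr17:7839904-7854796), a demethylase of the same residue, had 538 reads in the Bulk library against 1140, 1138 and 1082 in the Claret, eGFP and Violet libraries. The 3 slow-cycling libraries all lay above Bulk, at a level close to the threshold. The log2 ratio was 0.97 (0.83 to 1.13) in Claret, which was not called, and 1.07 (0.92 to 1.22) in eGFP and 1.01 (0.86 to 1.16) in Violet, which were. KDM6A, also named after its values were seen, had 276 reads in the Bulk library against 231, 217 and 234 in the slow-cycling ones, and no call.

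Of 10 listed PRC2 partner genes, 3, 2 and 3 were called lower in Claret, eGFP and Violet (background 6.72%, 7.64% and 6.91%) and 0 higher (background 11.2%, 11.9% and 11.6%). SUZ12, a core subunit, had 2121 reads in the Bulk library against 986, 987 and 1020 in the slow-cycling ones (log2 ratios -1.21, -1.11 and -1.05). PHF19, an accessory Polycomb-like subunit, had 3128 reads in Bulk and 1315, 1208 and 1185 (-1.36, -1.38 and -1.40). Other accessory subunits lay on the other side of Bulk: PHF1 at 0.84, 0.97 and 0.82 and JARID2 at 0.72, 0.85 and 0.68 on the log2 scale, neither called at 2-fold and both named after their values were seen.

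**Figure D3:**
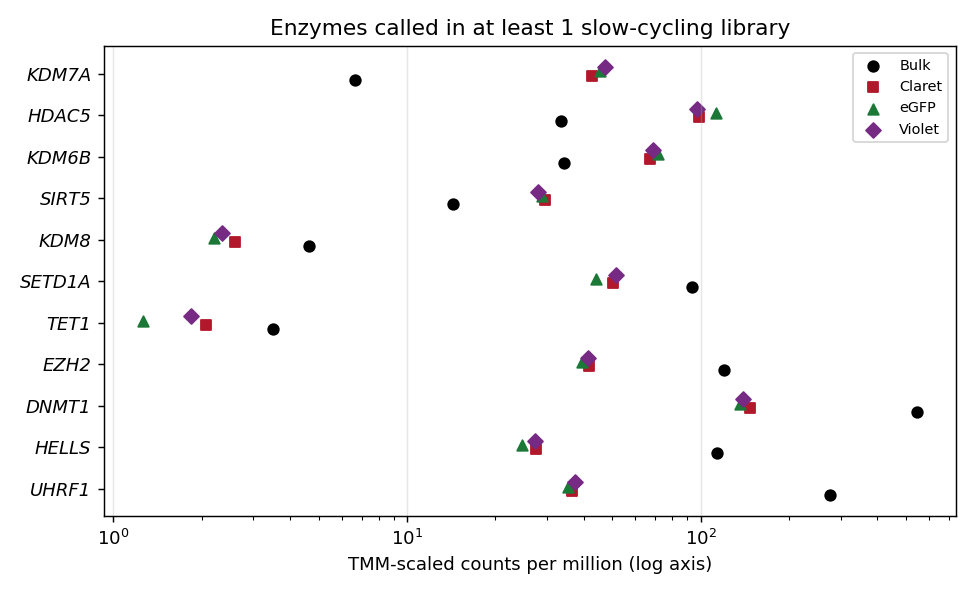
Level in CPM, scaled for library composition (log x axis), of the enzymes called in at least 1 slow-cycling library (y axis), with 1 point per library. For UHRF1, HELLS, DNMT1 and EZH2 the Bulk point lies far to the right of the other 3, and for KDM7A and HDAC5 far to the left, and each gene is compared with itself, since this unit is not per length.

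Of the 17 remaining genes of the KMT and SETD families, 1 was called, SETD1A in eGFP. The shares of all genes called lower were 6.72%, 7.64% and 6.91% in Claret, eGFP and Violet. Those called higher were 11.2%, 11.9% and 11.6%. On the log2 scale 11 of the 17 lay below 0 in all 3 libraries and 4 above 0 in all 3. Of all 14585 genes tested, 6246 lay below 0 in all 3 and 6210 above. The 7 KMT2 and SETD1 genes, which methylate H3 lysine 4 in COMPASS-type complexes or, for KMT2E, resemble those enzymes, all lay below Bulk in each library, with medians of -0.52, -0.47 and -0.39. SETD1A (ENSG00000099381, chr16:30957294-30984664) was the lowest of the 17 on average, with 1477 reads in the Bulk library against 856, 699 and 812 in the Claret, eGFP and Violet libraries. Its log2 ratio was -0.89 (-1.02 to -0.77), -1.09 (-1.22 to -0.96) and -0.86 (-0.99 to -0.74), called in eGFP alone. SETD1B, named after its values were seen, had 1266, 732, 747 and 751 reads in Bulk, Claret, eGFP and Violet and no call.

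The 3 KMT5 genes, which methylate H4 lysine 20, lay above Bulk in all 3 libraries without a call. So did 6210 of all 14585 genes tested, called or not. KMT5C, with the highest mean of the 17, had 241 reads in the Bulk library against 355, 329 and 285 in the Claret, eGFP and Violet libraries. The log2 ratios were 0.45 (0.21 to 0.69), 0.43 (0.19 to 0.68) and 0.24 (-0.01 to 0.50). Among 10 listed COMPASS core subunits, HCFC1 (5519 reads in the Bulk library against 2329, 2477 and 2369 in the Claret, eGFP and Violet libraries) and PAXIP1 (608, then 277, 252 and 230) were called lower in all 3 libraries, and no other was called. Of 17 listed further lysine methyltransferases, 3, 4 and 4 were called lower. The H3 lysine 9 methyltransferases SUV39H1, SUV39H2 and EHMT2 were called in all 3. SUV39H1 had 273 reads in the Bulk library against 66, 37 and 39 in the Claret, eGFP and Violet libraries, which gave log2 ratios of -2.12, -2.83 and -2.75. SUV39H2 lay at -1.78, -1.68 and -1.49, and EHMT2 at -1.04, -1.09 and -1.11.

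Among 14 lysine demethylases tested outside the KDM6 pair, KDM7A had the largest rise of all 68 enzymes. KDM7A (ENSG00000006459, chr7:140084746-140177035), a JmjC enzyme that acts on lower methylation states of H3 lysines 9 and 27, had 105 reads in the Bulk library against 726, 722 and 742 in the Claret, eGFP and Violet libraries. All 3 slow-cycling libraries lay far above Bulk and close to each other. The log2 ratio was 2.66 (2.38 to 2.99), 2.75 (2.47 to 3.08) and 2.80 (2.53 to 3.13), called in each, and in FPKM the level went from 0.716 to 4.54, 4.79 and 4.90.

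At the other end of the same role, KDM8 had 73 reads in the Bulk library against 44, 35 and 37 in the Claret, eGFP and Violet libraries. Its log2 ratio was -0.81 (-1.41 to -0.28), -1.03 (-1.70 to -0.47) and -0.94 (-1.59 to -0.39), called in eGFP alone (exact binomial test, adjusted p = 0.000433). The next values, for genes named after their values were seen, were smaller than 2-fold. KDM5B, which demethylates H3 lysine 4, had 994 reads in the Bulk library against 1777, 1760 and 1855 in the Claret, eGFP and Violet libraries, which gave log2 ratios of 0.73, 0.81 and 0.90. Its relatives KDM5A (-0.29, -0.19 and 0.05) and KDM5C (0.11, 0.17 and 0.11) moved less. KDM2A, an H3 lysine 36 demethylase, lay at -0.64, -0.61 and -0.62, and KDM2B at -0.72, -0.73 and -0.71, with counting intervals that overlap between libraries. The lysine 4 demethylases of the LSD type lay on opposite sides, KDM1A at -0.41, -0.35 and -0.37 and KDM1B at 0.48, 0.49 and 0.29. Of 8 further JmjC proteins tested, 0, 1 and 0 were called lower in Claret, eGFP and Violet.

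Acetyltransferases were mostly lower, with no call at 2-fold. The shares of all genes called lower were 6.72%, 7.64% and 6.91% in Claret, eGFP and Violet. Those called higher were 11.2%, 11.9% and 11.6%. Of 7 acetyltransferases, 6 lay below Bulk in all 3 libraries, and the medians were -0.50, -0.55 and -0.43. Of all 14585 genes tested, 6246 lay below Bulk in all 3. KAT2B, the lowest on average, had 972 reads in the Bulk library against 612, 535 and 651 in the Claret, eGFP and Violet libraries. Its log2 ratios in that order were -0.77 (-0.92 to -0.63), -0.87 (-1.03 to -0.72) and -0.58 (-0.72 to -0.43). KAT8, the H4 lysine 16 acetyltransferase, was the exception, with 380 reads in the Bulk library against 435, 469 and 346 in the Claret, eGFP and Violet libraries. The log2 ratios were 0.09 (-0.11 to 0.29), 0.29 (0.09 to 0.49) and -0.13 (-0.35 to 0.08). Of 17 listed further acetyltransferases and scaffold proteins, 3, 3 and 4 were called lower and 0, 1 and 0 higher. HAT1, which acetylates newly made histone H4, had 1342 reads in the Bulk library against 609, 454 and 514 in the Claret, eGFP and Violet libraries (-1.24, -1.57 and -1.38), and BRPF3, a scaffold of a KAT7 complex, had 1924 reads in Bulk and 883, 908 and 892 (-1.23, -1.09 and -1.11).

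Of 11 deacetylases of the HDAC family, HDAC5 alone was called. It was higher in all 3 libraries, as were 8.49% of all genes tested, so that 1 of 11 is near the background. HDAC5 (ENSG00000108840, chr17:44076746-44123702), a class IIa enzyme that shuttles between nucleus and cytoplasm, had 529 reads in the Bulk library against 1679, 1794 and 1528 in the Claret, eGFP and Violet libraries. Each slow-cycling library lay far above Bulk. The log2 ratio was 1.55 (1.42 to 1.70), 1.75 (1.61 to 1.89) and 1.53 (1.39 to 1.68), called in all 3. HDAC2, a class I enzyme and the lowest on average, had 2843 reads in the Bulk library against 2346, 1928 and 1973 in the Claret, eGFP and Violet libraries. Its log2 ratios in that order were -0.38 (-0.46 to -0.31), -0.57 (-0.66 to -0.49) and -0.53 (-0.61 to -0.44). HDAC1 and HDAC3, named after their values were seen, lay close to it, at -0.45, -0.62 and -0.40 and at -0.39, -0.57 and -0.43. HDAC11, the single class IV enzyme and also named after its values were seen, had 309 reads in the Bulk library against 469, 483 and 510 in the slow-cycling ones, without a call at 2-fold.

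In FPKM, the 4 class I genes summed to 93.6 in Bulk and to 68.9, 60.7 and 67.7 in the libraries of Claret, eGFP and Violet, and the 4 class IIa genes to 16.9 in Bulk and 24.3, 26.3 and 25.6. HDAC5 held 26.5% of the class IIa sum in Bulk and 53.4%, 56.0% and 48.9% in the slow-cycling libraries. HDAC7, named after its values were seen, held the largest share in Bulk, 51.0%, against 32.4%, 30.4% and 36.2%. HDAC1 had the highest mean FPKM of all 72 enzymes, 43.9, followed by KAT2A, named for this rank, at 27.5 and DNMT1 at 24.8. Of 20 listed subunits of HDAC corepressor complexes, 1, 2 and 2 were called lower. SAP30, of the SIN3 complex, was called in all 3, with 601 reads in the Bulk library against 237, 193 and 195 in the Claret, eGFP and Violet libraries (-1.44, -1.64 and -1.61).

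**Figure D4:**
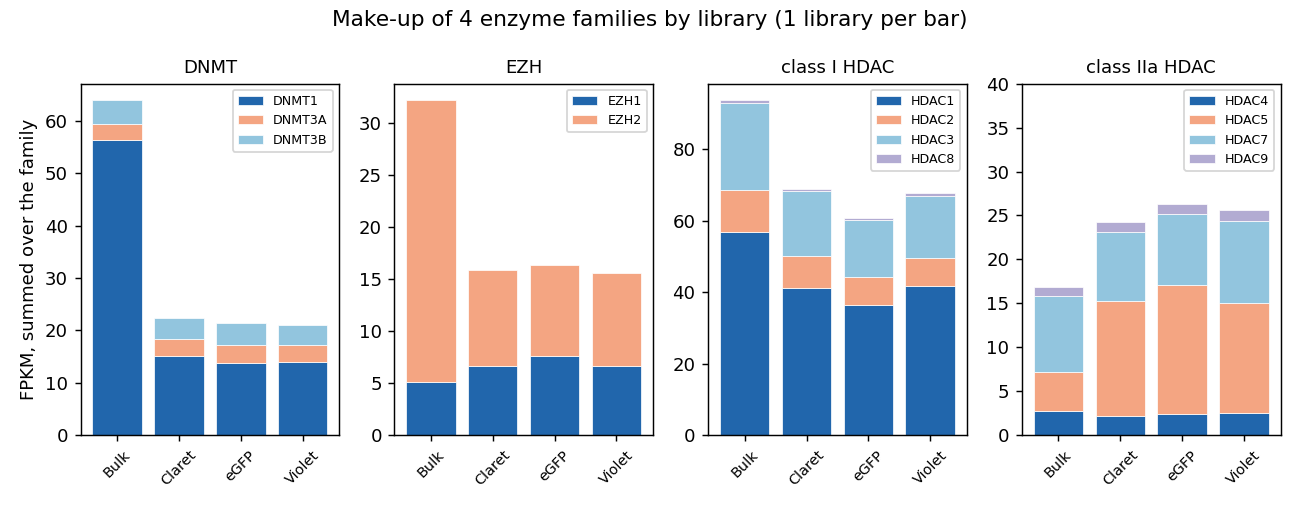
FPKM (y axis), stacked over the genes of 4 enzyme families, in each library (x axis), with 1 library per bar, no error bar and a separate y axis for each family. The DNMT and EZH stacks shrink with DNMT1 and EZH2, the class I HDAC stack goes from 93.6 in Bulk to 60.7 to 68.9, and the class IIa stack grows with HDAC5.

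Of 7 sirtuins, SIRT5 alone was called, in 1 library. That library was Claret, where 11.2% of all genes tested were called higher and 6.72% lower. SIRT5 (ENSG00000124523, chr6:13574529-13615158), a mitochondrial enzyme that removes succinyl and malonyl groups from lysines, had 226 reads in the Bulk library against 503, 457 and 439 in the Claret, eGFP and Violet libraries. The 3 slow-cycling libraries lay above Bulk at nearly the same level. The log2 ratio was 1.04 (0.82 to 1.28), 1.00 (0.77 to 1.24) and 0.95 (0.72 to 1.20). The Claret value was called, and the eGFP value fell just short of 1. SIRT3, another mitochondrial sirtuin named after its values were seen, lay at 0.54, 0.39 and 0.49. SIRT7, the lowest on average, had 879 reads in the Bulk library against 831, 728 and 751 in the Claret, eGFP and Violet libraries. The log2 ratios were -0.19 (-0.33 to -0.05), -0.28 (-0.43 to -0.14) and -0.23 (-0.37 to -0.08).

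No enzyme was called at 2-fold in any pair of slow-cycling libraries. Of all genes, 0.761% were called between Claret and eGFP, 0.802% between Claret and Violet and 1.01% between eGFP and Violet. With shares that small, 0 of 68 is near the background. By the adjusted p alone, with no size threshold, 7 of 68 differed between Claret and eGFP (background 12.6%), 16 between Claret and Violet (background 17.4%) and 16 between eGFP and Violet (background 17.2%). The widest gap was that of SIRT4, named after its values were seen, with 37 reads in Claret and 16 in eGFP, a log2 ratio of 1.03 (0.23 to 2.06) that missed the test (exact binomial test, adjusted p = 0.0627). TET2 was lower in Claret and eGFP than in Violet, with log2 ratios of -0.43 (-0.66 to -0.20) for Claret against Violet and -0.43 (-0.67 to -0.20) for eGFP against Violet. HDAC5 was higher in eGFP than in Violet by 0.22 (0.12 to 0.32). The KMT2 and SETD1 genes lay nearer to Bulk in Violet than in Claret for all 7. By the adjusted p alone, 4 of the 7 differed between these 2 libraries. For SETD1A the log2 ratio of Claret against Violet was -0.03 (-0.17 to 0.11). KMT2D, named after its values were seen, lay at -0.73 in Claret, -0.61 in eGFP and -0.42 in Violet.

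Taking the 8 lists of partner genes as 1 set of 99 tested, 0, 1 and 0 were called higher in Claret, eGFP and Violet, against 11.2%, 11.9% and 11.6% of all genes tested. Called lower were 13, 15 and 16 of the 99, against 6.72%, 7.64% and 6.91%, and 11 were lower in all 3, against 4.93%. Their median log2 ratio was -0.38, -0.36 and -0.39. Of 9 listed methyl-CpG readers and base repair genes, only CDCA7, which binds HELLS and is also on the S-phase list, was called, with 829 reads in the Bulk library against 277, 185 and 246 in the Claret, eGFP and Violet libraries. None of 8 arginine methyltransferases tested was called. The 3 comparisons with Bulk share the Bulk library, so that their agreement is not independent.

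**Figure D5:**
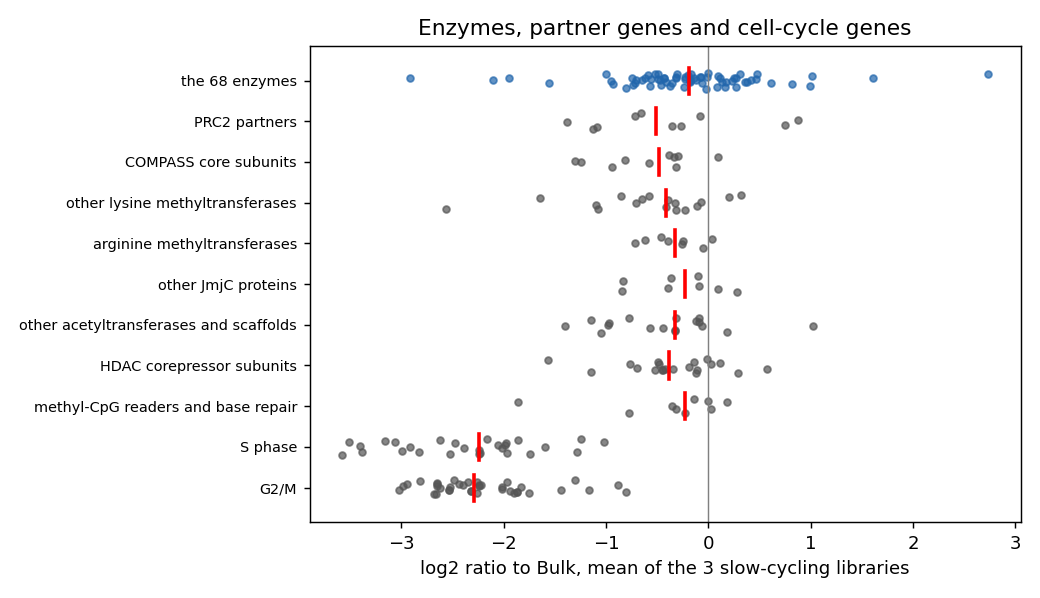
Log2 ratio to Bulk, as the mean of the 3 slow-cycling libraries (x axis), of the 68 enzymes, of the genes of the 8 partner lists and of the S-phase and G2/M lists (y axis), with 1 point per gene and a red bar at each median. The medians are -0.19 for the enzymes, between -0.51 and -0.23 for the partner lists, and -2.24 and -2.29 for the S-phase and G2/M genes.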

How the data were processed

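RNA-seq of 4 sorted libraries was used, 1 per group. The deposited count table holds whole-number reads per gene for 58735 genes, made with HISAT2 2.0.5 and featureCounts 1.5.0-p3 per the submitters' processing notes; use of strand is not given in the sources used here, so overlapping and antisense genes cannot be told apart. The deposited FPKM values were computed by the authors from those counts and serve here for levels per length. Coordinates are GRCh38, 1-based, as deposited, and equal GENCODE 29 for 72 of the 72 genes. Promoter windows come from RefSeq (GRCh38.p14).

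Genes with a mean of at least 1 CPM over the 4 libraries were tested (14585). Libraries were scaled by TMM (edgeR 4.0.16, R 4.3.3), and log2 ratios used a prior count of 2. The quasi-likelihood test of edgeR needs replicates to estimate spread and so could not be fitted. Reads of each pair of libraries were therefore compared by a two-sided exact conditional binomial test (scipy 1.17.1) with Benjamini-Hochberg adjustment over all genes tested, for 6 pairs. The procedure was tested on simulated data with counting error alone. Such data cannot show how it performs with variation between replicate libraries, which is not measured here. Intervals are 95% Clopper-Pearson intervals of the read ratio; intervals and floors cover counting error only, since reads carry no molecular identifiers.

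Genes are named when called at 2-fold in any comparison, when highest or lowest on average in 1 of 7 roles, or when not tested; partner genes when called in all 3 comparisons with Bulk. Other genes were named after their values were seen. The genes and lists were chosen with earlier results of these data known. Alternatives were other scalings (with DESeq2 1.42.0 size factors as one), filters, prior counts, log2(FPKM + 1), an assumed biological variation, a GC correction, a 1.5-fold threshold and the groups of the treatment field.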

Additional observations from a re-analysis of the deposited data

Results flagged for a closer look

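A non-coding gene outside the enzymes rose with KDM7A. KDM7A-DT (ENSG00000260231, chr7:140177184-140179640, plus strand) is annotated as a long non-coding RNA from a bidirectional promoter; 148 bases separate its start from the end of KDM7A on the minus strand, and its start lies inside the KDM7A window shown above. It had 3 reads in the Bulk library against 41, 36 and 39 in the Claret, eGFP and Violet libraries. The log2 ratio was 3.01 in Claret (95% exact interval from counting error, 2.02 to 6.0), 2.92 in eGFP (1.91 to 5.92) and 3.05 in Violet (2.05 to 6.04). The gene was singled out because it carries signal outside the protein-coding enzymes described above. It is 1 of 11 non-coding genes and pseudogenes whose names match the same families, and the one called higher in all 3 libraries. HDAC2-AS2, antisense to HDAC2 and overlapping it, had 17 reads in the Bulk library against 41, 26 and 41 in the Claret, eGFP and Violet libraries. The log2 ratio of HDAC2-AS2 was 1.08 (0.31 to 2.07), 0.55 (-0.34 to 1.57) and 1.18 (0.42 to 2.18), called in Claret and Violet, and its reads cannot be told apart from those of HDAC2. With so few reads of KDM7A-DT in Bulk, the size of its ratio is loosely fixed.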

How the results depend on the processing

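No paired analysis was possible because each group holds 1 library, and for the same reason no replicate could be left out. Under the groups of the treatment field, the library titled Violet stands as un-gated. The counts called in eGFP and Violet were 0 higher and 0 lower, against 0.802% and 1.01% of all genes in either direction. The median log2 ratio of the enzymes under that field was 0.23 in Claret, -0.0332 in the eGFP library and -0.0557 in the Violet library. With the titles as groups, the counts at 1.5-fold rose to 5 higher and 17 lower in Claret, 7 and 17 in eGFP, and 6 and 12 in Violet. Of all genes, 19.8%, 20.5% and 20.8% were higher and 16.7%, 17.9% and 16.6% lower. With an assumed biological coefficient of variation of 0.2, the count lower in eGFP was 4. The share of all genes called at that setting is not given here. Over the enzymes named by the rule, 382 of 402 values kept their direction and their side of the threshold, 14 lost the call, 6 gained it and 0 reversed. Values far from the threshold could hardly change side, so this count says little about those near it. The log2(FPKM + 1) values were judged by size alone, with no test. The GC correction changed the log2 ratios and kept the adjusted p of the main run. The calls of KDM6B in eGFP and Violet, SIRT5 in Claret, and KDM8, SETD1A and TET1 in eGFP were lost at that assumed variation. Besides these 6, 5 calls were lost with log2(FPKM + 1), 2 with the GC correction and 1 with DESeq2 size factors. SIRT5 in Claret was among those lost with log2(FPKM + 1), at 0.78. With a GC correction the log2 ratio of KDM6B was 0.90 in eGFP and 0.86 in Violet, and those of SETD1A were -1.05 in Claret and -1.01 in Violet; the cause was not tested. UHRF1, DNMT1, HELLS, EZH2, KDM7A and HDAC5 were called in all 3 libraries under every scaling, filter, prior count, assumed variation and correction run, with the titles as groups. The sum of UHRF1 with its pseudogene was chosen after seeing the data.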
